A study of Mus musculus with 4 samples.

Results

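The genes described here encode proteins of the acrosome and of sperm-egg fusion, and they were taken by symbol alone from the deposited count table: Acr, Acrbp, Acrv1, Zp3r, Spaca7, Spaca1, Spaca3, Spaca4, Spam1 and Izumo1. Each symbol had 1 row, which made 10 of the 25265 genes in the table, and all 10 passed the filter on low counts that left 21132 genes for testing. RNA was sequenced from whole testes of C57BL/6 mice at postnatal day 56, after ribosomal RNA depletion. Of the 4 libraries, 2 carried the label control and 2 the label Ythdf2-vKO. The series title describes a germ cell-specific mutation of Ythdf2, which encodes a cytoplasmic reader of N6-methyladenosine (m6A) in RNA. The design asks what that genotype does to gene expression in the adult testis. The driver of the germ cell-specific mutation, the deleted segment and the alleles of the control mice are not given in the sources used here. The labels do not say that each library came from a separate animal, so p-values measure only the spread between libraries, which may be technical.

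The acrosome is a Golgi-derived vesicle that caps the nucleus of the spermatid and is released by exocytosis when a sperm reaches the egg. Its matrix stores proteases and zona-binding proteins, a hyaluronidase on the sperm surface loosens the cumulus around the egg, and membrane proteins that the acrosome reaction exposes take part in adhesion and fusion. The genes are transcribed mainly in late spermatocytes and spermatids, well before the proteins are used, and mRNAs of these stages are often stored before they are translated.

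Total gene counts ran from 24862518 to 29561182 per library. The targeted transcript was not lower under its label. Ythdf2 stood at 51.0 and 53.5 CPM (counts scaled by the TMM method to library size) in the control libraries and at 66.3 and 67.0 CPM in the Ythdf2-vKO-labelled libraries, a log2 fold change of 0.35 (standard error 0.13, adjusted p = 0.238 in edgeR's quasi-likelihood test). Every direction below is therefore that of the libraries labelled Ythdf2-vKO relative to control. Of 21132 genes tested, 59 were called higher and 24 lower at an adjusted p under 0.05. Higher genes were 71.1% of these calls, 83% with scaling by library totals alone and 57.1% with an offset for GC content. With that offset and a term for replicate number together, higher genes were 48.4% of calls. Control replicate 2 stood apart in GC: the Spearman correlation of its deviation with transcript GC content, across genes, was -0.406, against 0.0249 in control replicate 1 and 0.258 and 0.194 in the Ythdf2-vKO-labelled libraries. The tissue label held: the spermatid genes Tssk1 and Prm1 stood at 352 to 384 CPM and 487 to 663 CPM over the 4 libraries.

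None of the 10 genes passed the test for a difference between the groups. At an adjusted p under 0.05, 0 of 10 were called, against 0.393% of all genes tested. At an unadjusted p under 0.05 there were also 0 of 10, against 14.1% of all genes, and a DESeq2 Wald test called 0 of 10, against 1.32% of the genes it gave an adjusted p. Log2 fold changes ran from -0.11 to 0.23 with a median of 0.04, and the median of all genes tested was 0.00265. The 95% interval of each gene lay inside a 1.5-fold change in either direction, the lowest bound being 0.767-fold for Spam1 and the highest 1.5-fold for Acr. With 2 libraries per group, a change of a size inside its gene's interval cannot be told from none. In the authors' deposited table the adjusted p of these genes ran from 0.682 to 0.983, and 1.32% of the genes with an adjusted p there were under 0.05. In whole-testis RNA, fewer cells of a type and less RNA per cell cannot be told apart.

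Upstream sequence is shown for 3 of the genes, chosen to set a gene with a full cyclic AMP response element (CRE) beside 1 with only the core of that element and 1 with neither, since CREM, which binds this element, is a known activator of spermatid genes. Each is the 250 bases before the RefSeq transcription start in GRCm38.p6, written 5′ to 3′ on the strand of the gene, with any TGACG on either strand in capitals. The windows are chr7:45621561-45621810 for Izumo1, chr11:80858113-80858362 for Spaca3 and chr9:36692970-36693219 for Acrv1, all on the plus strand.
Izumo1: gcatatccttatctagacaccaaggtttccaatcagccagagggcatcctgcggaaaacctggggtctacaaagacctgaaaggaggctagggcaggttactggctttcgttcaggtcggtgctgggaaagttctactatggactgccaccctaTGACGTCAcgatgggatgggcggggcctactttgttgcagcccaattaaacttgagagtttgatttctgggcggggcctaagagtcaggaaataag
Spaca3: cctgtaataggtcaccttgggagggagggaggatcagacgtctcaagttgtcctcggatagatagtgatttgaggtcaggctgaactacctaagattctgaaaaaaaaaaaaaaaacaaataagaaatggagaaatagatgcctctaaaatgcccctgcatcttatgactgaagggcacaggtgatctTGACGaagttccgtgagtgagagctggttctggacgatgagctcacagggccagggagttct
Acrv1: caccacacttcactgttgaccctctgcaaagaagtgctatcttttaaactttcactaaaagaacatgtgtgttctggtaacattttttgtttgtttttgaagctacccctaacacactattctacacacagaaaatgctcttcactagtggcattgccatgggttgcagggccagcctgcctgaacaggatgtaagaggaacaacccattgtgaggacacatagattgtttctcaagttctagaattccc
The full element TGACGTCA begins at position -96 from the start of Izumo1, and TGACG begins at -62 in Spaca3. RefSeq promoters were found for 9 of the 10 genes, Acr not among them. In the 250 bases before the start, TGACGTCA occurred in 1 of the 9 genes (Izumo1) and in 1.55% of 32851 promoters of the same length. TGACG, which TGACGTCA contains on both strands, occurred in 4 of the 9 (Izumo1, Spaca1, Spaca3 and Acrbp) and in 17.8% of all promoters. The 9 genes have 11 promoters. Counted by promoter, TGACGTCA occurred in 1 of the 11 and TGACG in 6. The windows of Spaca1 overlap each other, as do those of Spaca3, so their TGACG sites were counted more than once. Repeated starts were dropped from the 11 and not from the 32851. These are matches of letters and do not show binding. 

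Among the acrosomal matrix genes, Acr varied most. Acr (ENSMUSG00000022622, chr15:89568326-89574585, plus strand) encodes proacrosin, the zymogen of the trypsin-like protease acrosin. It stood at 188 and 131 CPM in the control libraries and at 194 and 181 CPM in the Ythdf2-vKO-labelled libraries. Control replicate 2 was the low library, and the other 3 lay within 181 to 194 CPM. The log2 fold change was 0.23 (standard error 0.16, 95% interval -0.11 to 0.58, adjusted p = 0.563 in edgeR's test), the largest among the 10 genes in either direction. The value rested on that library. Without control replicate 2 the log2 fold change of Acr was -0.003, and without control replicate 1 it was 0.51, at an adjusted p of 0.00225 in edgeR's test. With control replicate 1 left out 6.82% of all genes tested were called, and Acr was 1 of 1512 genes called.

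Acrbp (ENSMUSG00000072770, chr6:125049689-125063267, plus strand) encodes the protein that binds proacrosin and governs its packaging and activation. Its levels were 248 and 203 CPM in the control libraries and 226 and 242 CPM under the Ythdf2-vKO label, so that both of the latter lay between the control libraries. Its log2 fold change was 0.06 (standard error 0.13). As with Acr, control replicate 2 was the lowest library, and these were the only 2 of the 10 genes that were lower there than in control replicate 1. Their transcripts have 53.1% and 55.0% GC, and with the offset for GC content the log2 fold change was 0.17 for Acr and -0.04 for Acrbp. Spaca4 (60.1% GC) and Izumo1 (58.3%) have more GC and were higher in control replicate 2 than in replicate 1 (log2 ratios 0.30 and 0.18). Over the 10 genes the Spearman correlation of the log2 ratio of control replicate 2 to 1 with GC content was 0.18, a description from 2 libraries.

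None of the other 3 matrix genes passed the test. Acrv1 (ENSMUSG00000032110, chr9:36693220-36698843, plus strand) encodes the acrosomal vesicle protein SP-10, made in round spermatids, and stood at 187 and 220 CPM in the control libraries and 198 and 227 CPM in the Ythdf2-vKO-labelled libraries. Zp3r (ENSMUSG00000042554, chr1:130576713-130629621, minus strand) encodes sp56, a matrix protein that binds the zona pellucida, and stood at 130 and 146 CPM against 127 and 128 CPM. Spaca7 (ENSMUSG00000010435, chr8:12573029-12600744, plus strand) encodes an acrosomal protein released at the acrosome reaction, and stood at 79.9 and 95.1 CPM against 74.6 and 96.6 CPM. The groups overlapped for Acrv1 and Spaca7. Both libraries labelled Ythdf2-vKO lay below both controls for Zp3r. Log2 fold changes were 0.06 (standard error 0.13) for Acrv1, -0.11 (standard error 0.12) for Zp3r and -0.03 (standard error 0.15) for Spaca7, with adjusted p values of 0.884, 0.739 and 0.959 in edgeR's test.

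Among the membrane and surface genes, Spaca1 came closest to a separation of the groups. Spaca1 (ENSMUSG00000028264, chr4:34024874-34050191, minus strand) encodes a membrane protein of the acrosome that is needed for its shape. It stood at 152 and 162 CPM in the control libraries and at 177 and 178 CPM in the Ythdf2-vKO-labelled libraries, so the groups did not overlap. The log2 fold change was 0.18 (standard error 0.12, 95% interval -0.08 to 0.43, adjusted p = 0.553 in edgeR's test), and it stayed between 0.13 and 0.22 when each library was left out in turn. It was the only gene of the 10 whose group difference exceeded the gap between replicates in both groups. Non-overlapping groups were found for 2 of the 10 genes, Spaca1 above and Zp3r below, and for 45.3% of all genes tested (22.7% above, 22.6% below).

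Spaca4 (ENSMUSG00000070563, chr7:45725107-45725813, minus strand) encodes a GPI-anchored protein of the Ly6 family on the sperm head that takes part in zona binding. It stood at 93.6 and 115 CPM in the control libraries and at 105 and 130 CPM in the Ythdf2-vKO-labelled libraries, a log2 fold change of 0.16 (standard error 0.15, adjusted p = 0.682 in edgeR's test). Spaca3 (ENSMUSG00000053184, chr11:80858365-80867814, plus strand) encodes a lysozyme-like protein of the sperm acrosomal membrane, and stood at 104 and 117 CPM against 104 and 120 CPM, a log2 fold change of 0.02 (standard error 0.13). For both genes replicate 2 was the higher library in each group, and the groups overlapped.

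Spam1 (ENSMUSG00000029682, chr6:24791188-24801048, plus strand) encodes PH-20, the GPI-anchored hyaluronidase of the sperm head. It was the least counted of the 10 genes, with 68.7 and 72.1 CPM in the control libraries and 60.9 and 70.6 CPM in the Ythdf2-vKO-labelled libraries, and a log2 fold change of -0.10 (standard error 0.13, adjusted p = 0.8 in edgeR's test). Izumo1 (ENSMUSG00000064158, chr7:45621811-45628823, plus strand) encodes the immunoglobulin-superfamily protein that binds JUNO on the egg and is required for fusion. Its levels were 88.9 and 101 CPM in the control libraries and 90 and 94.9 CPM under the Ythdf2-vKO label, so that both of the latter lay between the control libraries. The log2 fold change of Izumo1 was -0.04 (standard error 0.13, 95% interval -0.31 to 0.23, adjusted p = 0.934 in edgeR's test).

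**Figure D1:**
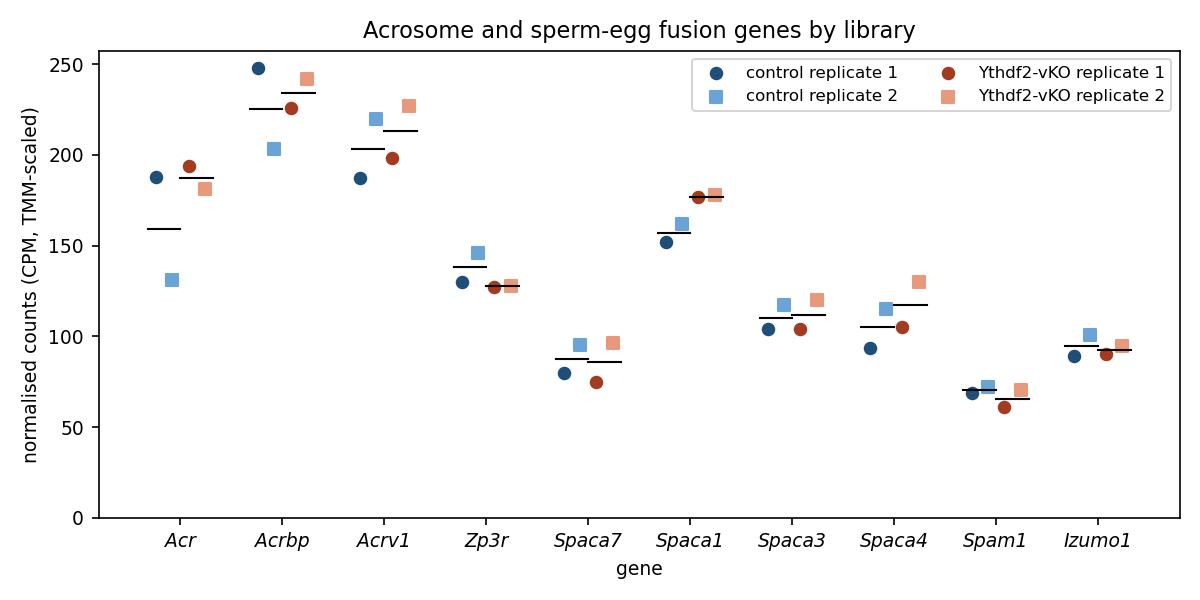
Normalised counts (CPM, vertical axis from 0) of the 10 genes in each of the 4 libraries, with the mean of each group as a bar. Acr in control replicate 2 (131 CPM) lies below the other 3 libraries (181 to 194 CPM), and the groups overlap in 8 of the 10 genes.

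Some gene models share sequence with neighbours, and the counting's treatment of strand and of shared reads is not given in the sources used here. Izumo1 shares 654 nt of exon on its own strand with Rasip1, which had 103 to 176 counts per library against 2079 to 3022 for Izumo1. Acrbp shares 975 nt with Gm44597 on the same strand (2 to 10 counts) and 90 nt with 4930557K07Rik on the opposite strand (53 to 116 counts). Spaca7 shares 132 nt with D630011A20Rik on the opposite strand (1 to 10 counts). Reads of the shared stretches may have been assigned to either gene or dropped, so the levels of these 3 genes are uncertain to that extent. No other gene held a stretch of at least 100 nt with at least 90% identity to the longest transcript of any of the 10.

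In most of these genes the replicates of a group differed by more than the groups did. The control replicates differed by more than the group log2 fold change in 8 of the 10 genes, the exceptions being Spaca1 and Spam1. The 2 libraries labelled Ythdf2-vKO did so in 7, and at least 1 of the 2 gaps was the larger in 9. A gap between single libraries varies more than a difference between means of 2 libraries. The same counts were not made over all genes, so they do not set these genes apart. The log2 ratio of control replicate 2 to replicate 1 ran from -0.52 for Acr to 0.30 for Spaca4, with a median of 0.17. The same ratio in the Ythdf2-vKO-labelled libraries ran from -0.10 for Acr to 0.37 for Spaca7, with a median of 0.15. Genes high in replicate 2 of one group tended to be high in replicate 2 of the other (Spearman 0.64 over the 10 genes, which share libraries). The Pearson correlation of these gaps was 0.67 over the 10 genes and 0.108 over 17827 genes. The 2 sets differ in level: the 17827 genes reach down to a mean of 1 CPM. The mean levels of the 10 lay between percentiles 82.7 and 95.4 of all genes tested. The labels do not say what the replicate numbers mark.

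**Figure D2:**
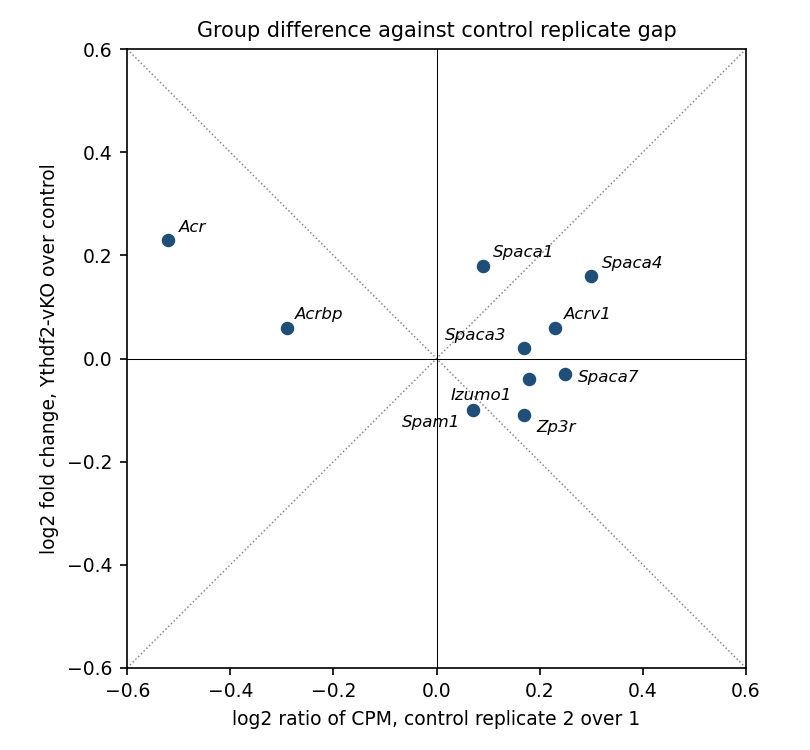
Log2 fold change between the groups (vertical axis) against the log2 ratio of CPM of control replicate 2 to control replicate 1 (horizontal axis) for each gene. Outside the dotted diagonals, to the left and right, the control gap is the larger, which holds for 8 of 10 genes; Acr lies farthest out at -0.52.

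Leaving out 1 library moved most of these small differences across 0. Of the 10 genes, Spaca1 stayed positive and Zp3r (-0.20 to -0.03) stayed negative in each of the 4 fits that left out a library, and the other 8 changed sign in at least 1. Spaca4 was at 0.32 without control replicate 2 and at -0.0023 without replicate 2 of the libraries labelled Ythdf2-vKO. Spaca7 was at 0.14 without replicate 1 of that group and at -0.23 without its replicate 2. In these fits 1 group has a single library, which is assumed to vary like the others.

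**Figure D3:**
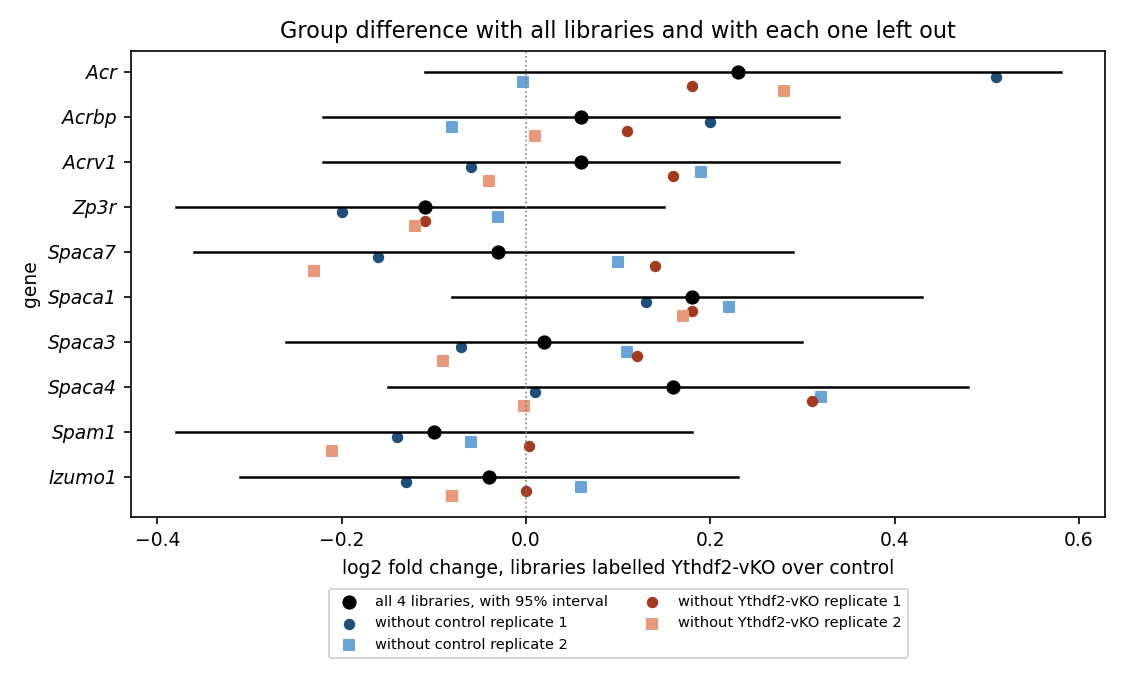
Log2 fold change of each gene with its 95% interval from all 4 libraries (black), and without each library in turn (coloured points). Each interval spans 0, and the points of Acr spread the most, from -0.003 to 0.51.

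The 10 genes together held a similar level in each library. Their sum was 1340 and 1361 CPM in the control libraries and 1356 and 1468 CPM in the Ythdf2-vKO-labelled libraries, a ratio of means of 1.05. Acrbp took 14.9% to 18.5% of that sum and Acrv1 14% to 16.1%. Acr took 14% and 9.61% in control and 14.3% and 12.3% in the Ythdf2-vKO-labelled libraries. The shares of the groups overlapped for these 3 genes and for 6 of the 10 in all. The share of Spaca1 was higher in both libraries labelled Ythdf2-vKO (13.0% and 12.1%) than in both controls (11.4% and 11.9%). Shares were lower under that label for 3 genes: Spam1 (4.49% and 4.81% against 5.12% and 5.30%), Zp3r (9.40% and 8.72% against 9.72% and 10.7%) and Izumo1 (6.63% and 6.46% against 6.64% and 7.40%). The shares of the 10 genes add up to a fixed total, and no test of them was made. By CPM the groups did not overlap for 45.3% of all genes tested, and no such background was computed for shares.

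Levels between genes were compared as CPM per kilobase of transcript. By the longest annotated transcript the control means ran from 148 (Spaca4) through 131 (Spaca1), 120 (Acrbp), 116 (Spaca3), 106 (Acr) and 90.5 (Spaca7) to 67.7 (Zp3r), 62.3 (Acrv1), 40.7 (Izumo1) and 33.4 (Spam1). Over the 4 libraries the ranges of neighbours in this order overlapped from Spaca4 down to Spaca7 and between Zp3r and Acrv1. They did not overlap between Spaca7 and Zp3r, Acrv1 and Izumo1, or Izumo1 and Spam1. The place of Acrv1 depended on its gene model: its longest transcript has 3265 nt and its principal one 1101 nt, and with the latter it stood first, at 185 CPM per kilobase. Izumo1 moved from 40.7 to 63.5 with its principal transcript. Spam1, the hyaluronidase gene, was lowest by either length.

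The m6A mark lies most often in a short consensus of which GGACT is a common form, so that sequence was counted in the principal transcripts. It occurred in 7 of the 10, against 90.5% of 15851 protein-coding genes tested. Izumo1 held 4 copies in 1493 nt, and Acr, Spaca3 and Spaca4 held 2 each. Acrv1, Spaca1 and Spaca7 held none. The median density was 0.51 per kilobase in the 10 genes and 1.05 in all. Transcript length differs between genes, and a match does not show that the site is methylated.

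Other genes of the same pathway were taken from a list of 57 symbols, of which 54 had a row and the rest were aliases or had none. The list covers fusion and adhesion, zona binding and matrix, hyaluronidases and lysozyme-like proteins, acrosome biogenesis and egg activation. All 54 were tested and 0 were called in either direction, against 0.279% of all genes called higher and 0.114% lower. At an unadjusted p under 0.05 there were 11, of which 1 was higher and 10 were lower, against 14.1% of all genes tested, of which 1616 were higher and 1368 lower. A DESeq2 Wald test called 1, Pkdrej. The median log2 fold change was -0.09, with 17 positive and 37 negative, and all genes tested had 10632 positive of 21132. By role the medians were -0.04 for 14 fusion and adhesion genes, -0.21 for 11 zona-binding and matrix genes, -0.04 for 6 hyaluronidases and lysozyme-like genes, -0.10 for 21 biogenesis genes and -0.23 for 2 egg-activation genes.

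The smallest p-values on that list belonged to Pkdrej, Zpbp2 and Crisp2 on the lower side. Pkdrej, a polycystin-family gene linked to the timing of the acrosome reaction, stood at 94.5 and 83.1 CPM in the control libraries and at 63.4 and 56.6 CPM in the Ythdf2-vKO-labelled libraries, a log2 fold change of -0.56 (standard error 0.13, adjusted p = 0.096 in edgeR's test). It passed in the DESeq2 Wald test (log2 fold change -0.57, adjusted p = 0.0307). Zpbp2, a zona-binding matrix gene, stood at 295 and 293 CPM against 214 and 235 CPM, with a log2 fold change of -0.39 (standard error 0.12, adjusted p = 0.178 in edgeR's test). Crisp2, a cysteine-rich secretory protein of the acrosome and tail, stood at 1655 and 1622 CPM against 1240 and 1322 CPM, with -0.36 (standard error 0.11, adjusted p = 0.193 in edgeR's test). The groups did not overlap in these 3 genes, which were picked for their small p-values. Both libraries labelled Ythdf2-vKO lay below both controls in 22 of the 54 genes and in 22.6% of all genes tested. They lay above both controls in 6 of the 54 and in 22.7% of all genes tested. All 3 passed when either control library was left out, fits in which 6.82% and 4.93% of all genes were called. None passed when either library labelled Ythdf2-vKO was left out, fits in which far fewer of all genes were called. The loss of calls was therefore not confined to these 3 genes. Log2 fold changes without replicate 1 and without replicate 2 of that label were -0.65 and -0.49 for Pkdrej. They were -0.32 and -0.46 for Zpbp2, and -0.31 and -0.40 for Crisp2.

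On the higher side the smallest p-values were those of Dcst2, Vps54 and Dcst1. Dcst1 and Dcst2 encode paired membrane proteins that, like IZUMO1, are required for fusion. Dcst2 stood at 88.4 and 65.2 CPM in the control libraries and at 96.0 and 97.0 CPM in the Ythdf2-vKO-labelled libraries, with a log2 fold change of 0.33 (standard error 0.15, adjusted p = 0.34 in edgeR's test). Dcst1 stood at 80.7 and 60.6 CPM against 94.7 and 78.2 CPM, with 0.29 (standard error 0.16, adjusted p = 0.439 in edgeR's test). Both were lowest in control replicate 2, as was Acr. Without control replicate 2 their log2 fold changes were 0.13 and 0.10, and without control replicate 1 they were 0.56 and 0.50, where both were called (adjusted p = 0.00249 and 0.00939 in edgeR's test). Vps54, a vesicle-tethering subunit needed for the acrosome, stood at 20.6 and 23.5 CPM against 26.2 and 27.9 CPM, with 0.29 (standard error 0.15, adjusted p = 0.397 in edgeR's test).

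**Figure D4:**
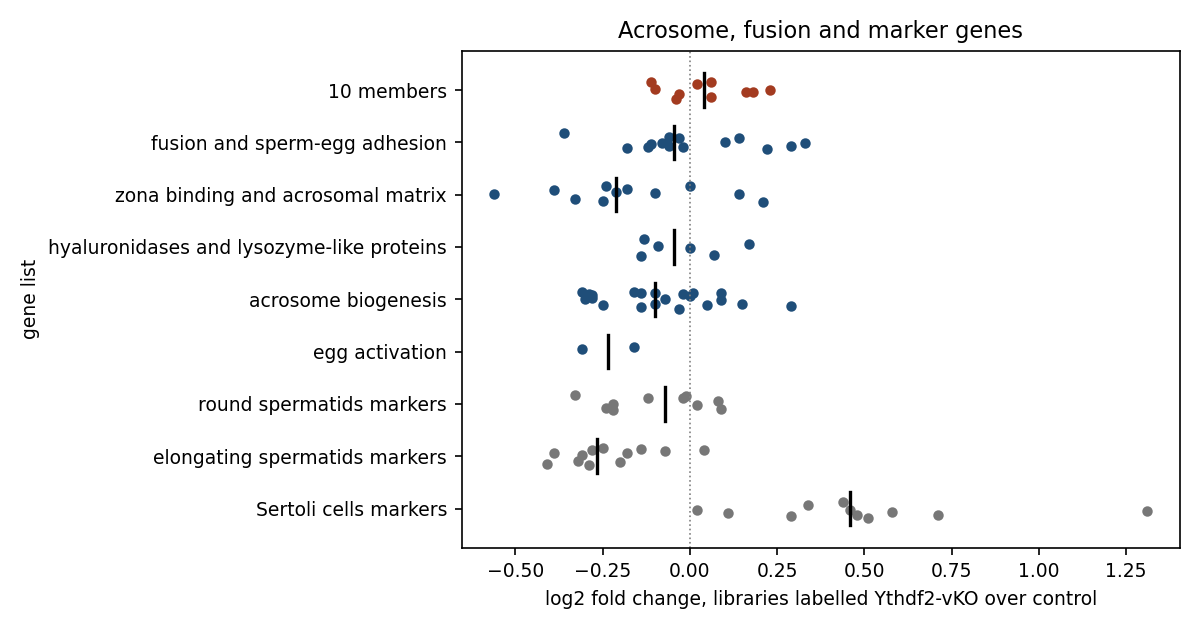
Log2 fold change (horizontal axis) of each gene of the 10 described (red), of the wider list by role (blue) and of 3 marker lists (grey), with the median of each as a bar. The 10 genes lie between -0.11 and 0.23, while the elongating spermatid markers have a median of -0.27 and the Sertoli markers one of 0.46.

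Markers of other germ cell stages and of other cell types were read in 11 lists, and their part in the values above was not tested. Of the 85 markers tested 1 was called, Wt1 of the Sertoli list, against 0.393% of all genes tested. For round spermatids the median log2 fold change of 10 markers was -0.07, for elongating spermatids it was -0.27 over 12, and for spermatocytes -0.11 over 10. Of the 12 elongating spermatid markers 0 were called. At an unadjusted p under 0.05 there were 6, all lower, against 14.1% of all genes tested. Summed levels of these markers were 17434 and 14458 CPM in the control libraries and 13580 and 13997 CPM in the Ythdf2-vKO-labelled libraries. Relative to that sum, the 10 acrosome and fusion genes stood at 0.0769 and 0.0942 in control and at 0.0999 and 0.105 under the Ythdf2-vKO label. Relative to the summed round spermatid markers they stood at 0.333 and 0.372 against 0.407 and 0.42, and relative to the spermatocyte markers at 0.422 and 0.508 against 0.437 and 0.525. The groups overlapped in the last of these 3 ratios and not in the others, and no test was made. By CPM the groups did not overlap for 45.3% of single genes tested, and no such background was computed for ratios. Each sum is led by its most counted markers. Sertoli markers had a median of 0.46 with 1 of 11 called, and their sums were 1009 and 1063 CPM against 1453 and 1276 CPM. At an unadjusted p under 0.05 there were 7 of these 11, all higher. Other lists also had positive medians: 0.22 over 9 spermatogonial markers, 0.38 over 8 Leydig, 0.40 over 6 endothelial and 0.76 over 4 erythrocyte markers. The groups overlapped in 5, 3, 3 and 1 of these, and none was called. They overlapped in 2 of the 11 Sertoli markers, and of all genes tested 45.3% did not overlap. In the same order, 2, 4, 1 and 3 markers had an unadjusted p under 0.05 in edgeR's test, all higher. Peritubular myoid markers had a median of -0.05 over 6 and macrophage markers 0.07 over 8, with the groups overlapping in 5 and 8 of them. Of 8 markers of epididymal epithelium, where sperm that have left the testis are stored, 3 had a row in the table. Crisp1 had 1 to 9 counts per library and Defb20 had 1 to 7. Rnase10 had 143 to 227 counts, with 8.13 and 7.57 CPM in the control libraries and 5.34 and 5.93 CPM in the Ythdf2-vKO-labelled libraries (log2 fold change -0.48, adjusted p = 0.314 in edgeR's test).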

How the data were processed

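The authors deposited 1 table of raw counts per gene for 4 testis libraries, per the file headers, with their mean normalized count (a signal, counts over size factors) and their comparison: log2 fold change and its error, test score, p-value and adjusted p-value, all under DESeq2's column names, per the file headers. HISAT2 2.1.0 and HTSeq 0.6.1p1 are named, per the submitters' processing notes, with no settings. The genome build is not given in the sources used here. No gene had under 10 counts in all.

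Counts were tested with edgeR 4.0.16 (limma 3.58.1, R 4.3.3): TMM scaling, the filterByExpr filter, a quasi-likelihood fit with robust estimation and genotype as its only term on all 4 libraries, and Benjamini-Hochberg adjustment over 21132 genes, with calls at an adjusted p under 0.05. The SE is the log2 fold change over the square root of F. The code was tested on simulated data. Replicates differed by more than sampling noise (chi-square per degree of freedom 21.17 and 8.415), so no libraries were merged as duplicates; whether they are separate animals is not stated in the labels. Reads carry no molecular identifiers, so counting error is a lower limit. Coordinates, transcripts and GC come from GENCODE M21 (GRCm38), in which 25261 identifiers were found; the authors' build may differ. Promoters come from RefSeq, GRCm38.p6.

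Named genes are the 10 members, Ythdf2, and from the wider list any called gene and the 3 smallest p-values in each direction. Members and lists were chosen with earlier results of these data known. Alternatives were DESeq2 size factors, library totals, no filter, a DESeq2 1.42.0 Wald test, a fit that is not robust, a replicate block, a GC offset (lowess per library), both together, and each library left out. Principal transcript lengths were added after seeing the data.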

Additional observations from a re-analysis of the deposited data

How the results depend on the processing

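Of the 120 log2 fold changes that 12 alternatives gave for the 10 genes, 98 kept their direction and side of the threshold, 21 changed sign and 1 passed the threshold (Acr without control replicate 1). With scaling by library totals alone, Spaca7 was at 0.03 and Izumo1 at 0.02. With the GC offset, Acrbp was at -0.04, Spaca3 at -0.07, Spaca4 at -0.06 and Spaca7 at 0.01. Adding the replicate block to the GC offset put them at -0.04, -0.07, -0.05 and 0.0022. Izumo1 kept its sign but moved from -0.04 to -0.23 with the GC offset and to -0.21 with the block added. The cause was not tested. Leaving out each library gave ranges of -0.003 to 0.51 for Acr, -0.06 to 0.19 for Acrv1, -0.08 to 0.20 for Acrbp, -0.09 to 0.12 for Spaca3, -0.0023 to 0.32 for Spaca4, -0.23 to 0.14 for Spaca7, -0.13 to 0.06 for Izumo1 and -0.21 to 0.0035 for Spam1.

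In those fits the number of the 10 genes called higher ran from 0 to 1, and their median log2 fold change from -0.06 to 0.13. From the wider list 0 to 5 genes were called higher and 0 to 6 lower, and of all genes 30 to 1048 were called higher and 5 to 523 lower. The DESeq2 Wald test called 1 wider-list gene lower (Pkdrej), and 137 of all genes higher and 80 lower. Library totals alone gave 181 and 37, the GC offset 89 and 67, and the fit that is not robust 15 lower. The replicate numbers were not taken to pair the libraries: deviations of same-numbered libraries correlated at 0.108 across 17827 genes, over 2 pairs. With the replicate block, 0 of the 10 genes and 2 wider-list genes (Pkdrej and Zpbp2, lower) were called, among 627 higher and 390 lower of all genes. The block and the GC offset together gave 292 and 311, Pkdrej the 1 wider-list gene called, and Ythdf2 was called higher (log2 fold change 0.40, adjusted p = 0.0367 in edgeR's test; 0.0367 to 0.866 over its alternatives).

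Each of the 10 genes had at least 1605 counts in every library, and the intervals given for them rest on 2 libraries per group.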
